A study of Mus musculus with 9 samples.

Results

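Immunoglobulin genes were followed in RNA of the mouse left ventricle, in 3 sham, 3 myocardial infarction (MI) and 3 MI+BPD libraries. They were taken by symbol: heavy-chain constant and variable genes, kappa and lambda light-chain constant and variable genes, and Jchain, each with at least 20 counts summed over the 9 libraries. Of 55367 symbols in the table, 380 matched, 214 of these had a count, and 137 met the sum. They are 7 heavy-chain constant genes (Ighm, Ighd, Ighg3, Ighg1, Ighg2b, Ighg2c and Igha), Igkc, Iglc1, Iglc2, Iglc3, Jchain, 61 Ighv, 61 Igkv and 3 Iglv segments. The members were thus selected on their summed count over all 9 libraries, and a sum of this size is no result. At its edge, Igkv13-84 and Igkv3-4 were taken with 20 counts each, and Ighv3-8, Igkv3-1 and Igkv8-16 stayed out with 19 each.

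The groups are sham surgery, MI, and MI with BPD, a treatment the labels do not spell out and give without a dose. The tissue of the MI groups was collected 14 days after infarction; no separate time is given for sham. The piece of ventricle is described as infarct core together with its border, which a sham heart does not have. The labels give no strain, sex or age of the mice, and nothing says whether the libraries of a group came from separate hearts, so p-values measure the spread between these libraries only.

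An antibody is built of heavy and light chains, each joined from a variable (V) segment and a constant region. The heavy constant gene sets the isotype: Ighm gives IgM, Ighd IgD, the Ighg genes IgG and Igha IgA, while Igkc and the Iglc genes serve kappa and lambda light chains. Jchain links IgM and IgA into polymers. B cells carry immunoglobulin on their surface, and plasma cells make far more of its mRNA for secretion, so a small number of plasma cells can supply most immunoglobulin reads of a tissue.

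V segments come in families of near copies, and reads can be assigned among them only where the copies differ. The V exons of 108 segments of the set were taken, and each was compared only with V exons of equal length. Of these segments, 40 had another that matched in at least 95% of bases, so their separate counts are uncertain. This is a least number, since near copies of other lengths were not compared. Some segments, Iglv1 among them, had none of equal length to compare. The V exons of 4 segments on which the results below turn are printed with a near segment, 5′ to 3′ on the coding strand, from the GENCODE M21 annotation of GRCm38; capitals mark the bases at which the pair differs. The build used for the deposited counts is not clear, and genes were matched by symbol.

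The first pair is Ighv11-2 (chr12:114048248-114048547, minus strand) and Ighv11-1 (chr12:113981886-113982185, minus strand), shown because Ighv11-2 was seen almost only in 1 library. The first 300 of 307 bases are printed and hold all 4 differences, and Ighv11-1 had 0 counts.
Ighv11-2: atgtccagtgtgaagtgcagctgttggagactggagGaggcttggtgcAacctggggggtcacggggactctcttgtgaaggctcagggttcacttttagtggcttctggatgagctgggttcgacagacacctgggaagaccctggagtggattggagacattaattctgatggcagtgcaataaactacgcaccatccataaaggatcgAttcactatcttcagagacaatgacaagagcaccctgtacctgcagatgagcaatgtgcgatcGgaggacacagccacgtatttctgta
Ighv11-1: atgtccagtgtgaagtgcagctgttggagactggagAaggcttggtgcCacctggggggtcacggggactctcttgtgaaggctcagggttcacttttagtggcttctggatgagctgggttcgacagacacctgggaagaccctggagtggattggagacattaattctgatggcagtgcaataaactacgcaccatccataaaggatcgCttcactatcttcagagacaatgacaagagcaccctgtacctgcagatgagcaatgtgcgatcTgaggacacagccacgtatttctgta

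The second pair is Igkv14-126 (chr6:67896345-67896642, plus strand), which had more counts than any other V segment, and Igkv14-111 (chr6:68256572-68256869, plus strand). They differ at 27 of 298 bases, and Igkv14-111 had 275 counts over the 9 libraries against 4796 for Igkv14-126.
Igkv14-126: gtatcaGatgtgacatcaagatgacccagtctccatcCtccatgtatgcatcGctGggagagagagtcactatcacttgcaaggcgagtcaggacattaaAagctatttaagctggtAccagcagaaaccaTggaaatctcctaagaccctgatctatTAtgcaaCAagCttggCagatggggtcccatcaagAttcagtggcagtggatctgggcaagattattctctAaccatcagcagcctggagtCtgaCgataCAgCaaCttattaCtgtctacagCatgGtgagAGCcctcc
Igkv14-111: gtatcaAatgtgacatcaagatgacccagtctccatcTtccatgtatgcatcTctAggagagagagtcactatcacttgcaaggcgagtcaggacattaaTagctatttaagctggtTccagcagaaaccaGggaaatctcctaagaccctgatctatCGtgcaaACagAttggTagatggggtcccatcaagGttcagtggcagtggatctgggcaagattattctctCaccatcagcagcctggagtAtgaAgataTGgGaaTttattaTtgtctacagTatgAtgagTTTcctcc

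The third pair is Igkv10-96 (chr6:68631963-68632260, minus strand) and Igkv10-94 (chr6:68704508-68704805, minus strand), shown because Igkv10-96 was the most abundant V segment that entered the test. They differ at 16 of 298 bases.
Igkv10-96: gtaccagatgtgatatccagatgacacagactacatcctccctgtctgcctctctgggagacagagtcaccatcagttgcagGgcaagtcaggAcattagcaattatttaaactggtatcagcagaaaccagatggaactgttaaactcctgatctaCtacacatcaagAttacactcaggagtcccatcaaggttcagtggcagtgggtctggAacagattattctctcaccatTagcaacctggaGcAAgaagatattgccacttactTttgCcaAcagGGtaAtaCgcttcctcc
Igkv10-94: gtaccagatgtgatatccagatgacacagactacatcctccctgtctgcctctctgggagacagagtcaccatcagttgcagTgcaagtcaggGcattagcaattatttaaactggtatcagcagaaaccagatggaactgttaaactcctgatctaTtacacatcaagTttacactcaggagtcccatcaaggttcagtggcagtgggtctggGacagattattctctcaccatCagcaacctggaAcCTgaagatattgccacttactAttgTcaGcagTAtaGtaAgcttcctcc

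The fourth pair is Igkv6-23 (chr6:70260409-70260706, minus strand), a segment detected in every infarct library, and Igkv6-15 (chr6:70406469-70406766, minus strand). They also differ at 16 of 298 bases.
Igkv6-23: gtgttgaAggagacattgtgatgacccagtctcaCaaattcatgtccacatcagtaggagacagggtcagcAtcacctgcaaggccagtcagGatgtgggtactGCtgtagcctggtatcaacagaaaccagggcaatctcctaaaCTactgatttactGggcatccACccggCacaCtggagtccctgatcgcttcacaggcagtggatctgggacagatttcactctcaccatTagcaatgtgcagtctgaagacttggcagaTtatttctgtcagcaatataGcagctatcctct
Igkv6-15: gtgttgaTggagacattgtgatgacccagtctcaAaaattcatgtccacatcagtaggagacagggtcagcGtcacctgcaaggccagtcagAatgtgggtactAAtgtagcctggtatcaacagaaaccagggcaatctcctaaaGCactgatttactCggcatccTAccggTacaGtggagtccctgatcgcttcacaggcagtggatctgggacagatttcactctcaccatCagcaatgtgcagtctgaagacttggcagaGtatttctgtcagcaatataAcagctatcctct

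Library totals ran from 14451410 to 19269072 counts. Genes encoded by mitochondrial DNA took 34.4% to 35.2% of counts in sham, 11.4% to 18.2% in MI and 17.6% to 25.7% in MI+BPD, and the 10 cardiomyocyte genes examined were lower in MI than in sham. Library MI 1 stood apart in immunoglobulin counts: it alone held 89.4% of the counts of the 137 genes. MI+BPD 1 was the highest of its group. Results that rest on these libraries are given with and without them, and that choice was made after the data were seen.

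Immunoglobulin transcripts were scarce in sham hearts and higher in every infarct library, by amounts that differed more within the infarct groups than between them. The 137 genes together had 160, 148 and 249 counts in the sham libraries. They had 118624, 4384 and 684 counts in MI, and 6174, 810 and 1386 in MI+BPD. As CPM, the counts scaled to library sizes adjusted by TMM, the sham sums were 14.6, 12.9 and 19. The MI sums were 4690, 178 and 31.4 CPM, and those of MI+BPD 369, 41.5 and 70.3. All 6 infarct libraries lay above all 3 sham libraries, and the MI and MI+BPD libraries overlapped.

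The summed level averaged 15.5 ± 3.11 CPM over the sham libraries, 1633 ± 2648 over MI, and 160.4 ± 182 over those with BPD (SD, n = 3). The log2 ratio of group means was 6.72 for MI to sham and 2.76 without MI 1. For MI+BPD to sham it was 3.37, and 1.85 without MI+BPD 1. For MI+BPD to MI it was -3.35; without MI 1 it turned to 0.61, and without both MI 1 and MI+BPD 1 it was -0.91. The direction of MI+BPD against MI thus depended on which of these libraries were left out. In bulk tissue, more cells of a type and more RNA per cell cannot be told apart.

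**Figure D1:**
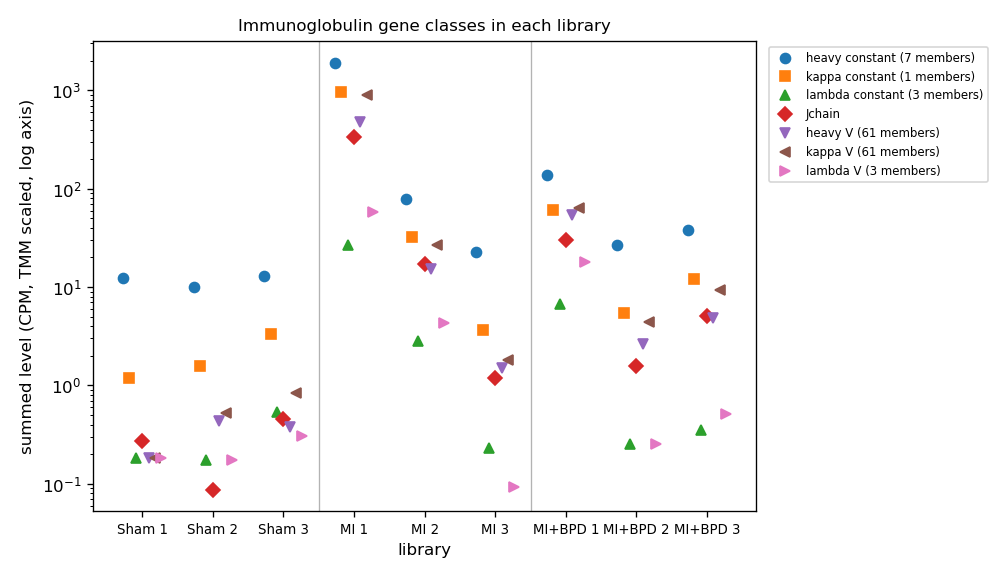
Summed level of each immunoglobulin gene class (CPM, log axis) in each of the 9 libraries; each symbol is 1 class in 1 library. Every class is highest in MI 1, and Jchain is lowest in Sham 2 (0.0874 CPM) and reaches 336 in MI 1.

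Sham hearts held mostly Ighm. Ighm, the IgM heavy chain, had 100, 83 and 139 counts in sham, 34254, 820 and 411 after MI, and 523, 376 and 492 in MI+BPD. Each infarct library exceeded each sham library, and without MI 1 the MI and MI+BPD values overlapped within a narrow range of 376 to 820 counts. In the edgeR fit over all genes, Ighm was higher in MI than in sham by 5.70 ± 1.59 on the log2 scale (SE, adjusted p = 0.0112), and by 1.54 without MI 1 (edgeR adjusted p = 0.0019). DESeq2, limma-voom and edgeR with no filter on low counts did not call Ighm in MI against sham. In MI+BPD against sham it was 1.48 ± 1.42 (edgeR adjusted p = 0.394), and the same log2 change of 1.48 passed without MI 1 (edgeR adjusted p = 0.0020).

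Igha, the IgA heavy chain, had few counts in sham and many in some infarct libraries. It had 0, 0 and 3 counts in sham, 4372, 974 and 31 after MI, and 1418, 61 and 177 in MI+BPD, with no overlap. The ratio to sham, where all 3 counts lie in Sham 3, was 889 for MI (95% counting interval 304 to 4311), 257 for MI without MI 1 (87.6 to 1247), and 351 for MI+BPD (120 to 1702). The edgeR fit put it at 9.61 ± 2.89 in MI against sham (SE, log2, adjusted p = 0.0161) and 8.46 ± 3.05 in MI+BPD against sham (adjusted p = 0.0395). Both calls were kept without MI 1, at 7.82 (edgeR adjusted p = 0.0349) and 8.45 (edgeR adjusted p = 0.0205). The MI+BPD call was lost without MI+BPD 1 (6.02, edgeR adjusted p = 0.220), without MI+BPD 3 and without any one sham library. The MI call was lost without Sham 1 and without Sham 3. Limma-voom called Igha in neither comparison with sham, and neither did edgeR with no filter on low counts.

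Counts of the IgG isotypes came mainly from MI 1. Ighg2b had 0, 0 and 4 counts in sham, 5484, 62 and 3 after MI, and 182, 26 and 11 in MI+BPD, so that MI 3 overlapped with sham. Its log2 change in MI against sham was 9.26 ± 3.23 (SE, edgeR adjusted p = 0.0302), and 3.52 without MI 1 (edgeR adjusted p = 0.174). Ighg1 had no count in sham, 1726, 3 and 0 after MI, and 34, 0 and 7 in MI+BPD, at least 286-fold higher in MI taken as a group and at least 8.68-fold higher in MI+BPD, against a floor of 3 counts over the sham group. MI 1 held all but 3 of the Ighg1 counts in MI, and without it no fold can be given. Ighg1 did not pass the filter on low counts and was not tested.

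Ighg2c was the IgG gene with the most counts in sham, with 25, 20 and 12 counts in sham. It had 2264, 60 and 19 counts in MI and 114, 28 and 29 in MI+BPD. Its log2 change in MI against sham, 4.25 ± 1.70, did not pass (SE, edgeR adjusted p = 0.0509), and it was 0.04 without MI 1 (edgeR adjusted p = 0.969). Ighg3 had 2, 1 and 0 counts in sham, 152, 1 and 0 in MI and none in MI+BPD.

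Ighd, the IgD heavy chain that marks naive B cells together with Ighm, changed less. It had 9, 10 and 14 counts in sham, 316, 37 and 35 after MI, and 14, 33 and 37 in MI+BPD. The log2 change in MI against sham was 2.49 ± 0.86 (SE, edgeR adjusted p = 0.0272), and 0.75 without MI 1 (edgeR adjusted p = 0.106). MI+BPD 1, the library with the most immunoglobulin counts of its group, had the fewest Ighd counts of the infarct libraries.

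Igkc, the kappa constant region, followed the heavy chains with 13, 18 and 44 counts in sham, 24366, 795 and 80 after MI, and 1015, 107 and 238 in MI+BPD. All infarct libraries lay above all sham libraries. Its log2 change in MI against sham was 7.31 ± 2.17 (SE, edgeR adjusted p = 0.0151), and 3.11 without MI 1 (edgeR adjusted p = 0.057). That call was also lost with limma-voom, with no filter on low counts, without Sham 1 and without Sham 2. Against sham, MI+BPD stood at 3.63 ± 2.06 (SE, edgeR adjusted p = 0.158), and 3.63 with adjusted p = 0.0276 in edgeR without MI 1.

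Jchain, which joins IgM and IgA polymers, had 3, 1 and 6 counts in sham, 8511, 424 and 26 after MI, and 508, 31 and 100 in MI+BPD. The groups with infarct did not overlap with sham. In MI against sham it changed by 8.68 ± 2.65 (SE, log2, edgeR adjusted p = 0.0172), and by 5.01 without MI 1 (edgeR adjusted p = 0.0397). It was not called there by limma-voom, by edgeR with no filter on low counts, or without any one sham library. For MI+BPD, a change from sham of 5.4 ± 3.0 did not pass with all libraries (SE, edgeR adjusted p = 0.151) and passed without MI 1 (5.41, edgeR adjusted p = 0.0253).

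Lambda light chains were the smaller light-chain class in each library. Iglc1 had 0, 1 and 2 counts in sham, 184, 57 and 2 after MI, and 79, 3 and 6 in MI+BPD. It was higher in MI than in sham by 5.16 ± 2.01 (SE, log2, edgeR adjusted p = 0.0437), with an adjusted p of 0.154 in edgeR without MI 1, and MI 3 overlapped with sham. Iglc2 reached 302 counts and Iglc3 184 counts in MI 1, and neither passed the filter for testing. Kappa made up 86.3% to 97.3% of light-chain constant counts over the 9 libraries.

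**Figure D2:**
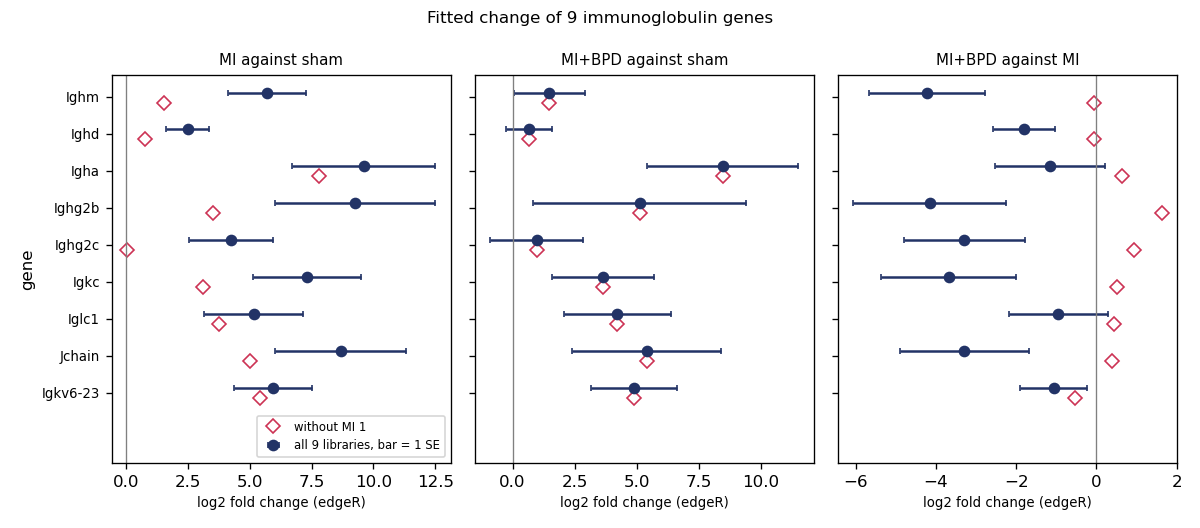
Fitted log2 fold change of 9 tested immunoglobulin genes in the 3 comparisons, with all 9 libraries (filled circles, bars of 1 SE) and without MI 1 (open diamonds). Igha stays at 7.82 in MI against sham without MI 1, whereas Ighg2c drops to 0.04, and in MI+BPD against MI the diamonds lie between -0.54 and 1.63.

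Over the whole set, 25 of the 137 genes passed the filter on low counts; the other 112 held 23.4% of the set's counts, among them Igkv14-126 with 4796. A gene passes when at least 3 libraries hold enough counts, so genes that enter through the infarct libraries had to lie above sham, and the counts that follow describe the 25 only. In MI against sham, 68.9% of all 15138 tested genes were called in edgeR at an adjusted p under 0.05, 37% higher and 31.9% lower. Of the 25, 16 were called higher and 0 lower, and all 25 had a positive change, with a median of 7.32 against 0.07 over all genes tested. In 9 of them the MI libraries lay above all sham libraries without overlap, which held for 40.1% of all tested genes. Without MI 1, 6 of 26 tested immunoglobulin genes were called higher (Ighm, Igha, Jchain, Igkv6-23, Igkv6-15 and Igkv1-117), a smaller share than the 33.8% of all genes called higher in that fit. Without any one sham library, 3 or 4 of 81 to 83 were called, Ighm and Igkv6-23 each time, where 32.8% to 33.3% of all genes were called higher. Scaled by library totals alone, 69.2% of all genes were called higher, the median of all genes moved to 0.81, and 19 of the 25 were called higher; in MI+BPD against sham that scaling gave 60.3%, 0.57 and 2.

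For MI+BPD against sham, 59.6% of all tested genes were called, 31.8% higher and 27.8% lower. Of the 25 immunoglobulin genes, 2 were called, Igha and Igkv6-23, and both were higher. All 25 changes were positive, with a median of 4.92 against 0.04 over all genes, and 13 had no overlap between the groups, against 35.8% of all genes. In the fit without MI 1, 7 of 26 were called higher (Ighm, Igha, Ighg2b, Igkc, Jchain, Igkv6-23 and Igkv1-117), against 31.6% of all genes. Without MI+BPD 1, 0 of 43 were called, against 30.2% of all genes called higher. Without any one sham library 0 of 81 to 83 were called, against 27.3% to 27.9%, so that the calls of Igha and Igkv6-23 were lost there.

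Treated infarcts were set against untreated ones in MI+BPD against MI. In edgeR, 0% of the 15138 genes and 0 of the 25 immunoglobulin genes were called. Limma-voom also called 0 of the 25, while it called 5.09% of all genes higher and 1.46% lower. DESeq2 gave an adjusted p to only 1 immunoglobulin gene, which it did not call. In 0 of the 25 did the MI and MI+BPD libraries separate without overlap; of all genes, 6.63% separated with MI+BPD higher and 7.32% with MI+BPD lower. At an unadjusted p under 0.05 there were 6 in edgeR. All 25 changes were negative, with a median of -2.145 against 0.00 over all genes. The rule on summed counts favours genes that are high in MI 1, which held 89.4% of the set's counts. The shared sign therefore follows in part from that rule. Ighm was at -4.22 ± 1.45 (SE, edgeR adjusted p = 0.369), Igkc at -3.68 ± 1.69 (edgeR adjusted p = 0.376), Jchain at -3.29 ± 1.62 (edgeR adjusted p = 0.394) and Igha at -1.16 ± 1.37 (edgeR adjusted p = 0.701). Without MI 1 the same genes stood at -0.06, 0.52, 0.40 and 0.64. Without MI 3 instead, 5 of 81 tested were called lower in MI+BPD and 0 higher (Ighv1-19, Ighv2-2, Ighv3-6, Igkv4-91 and Igkv6-32). In that fit, 1.47% of all genes were called lower and 7.29% higher. Of these 5, only Ighv3-6 was tested with all 9 libraries. The others passed the filter through MI 1 and MI 2, so a lower level in MI+BPD was in part set by the filter. MI and MI+BPD are each compared with the same 3 sham libraries, so their changes against sham share those values.

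The isotype make-up differed between libraries of one group. Igha took 9.0% of heavy constant counts in MI 1 (95% exact binomial interval 8.75% to 9.26%), 49.8% in MI 2 (47.5% to 52.0%) and 6.21% in MI 3 (4.26% to 8.70%). In MI+BPD it took 62.1% in MI+BPD 1 (60.03% to 64.1%), 11.6% in MI+BPD 2 (9.02% to 14.7%) and 23.5% in MI+BPD 3 (20.5% to 26.7%). The share of Igha thus differed between libraries of the same group beyond these intervals. These intervals, and all counting intervals and floors here, cover counting error only.

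Ighm took 70.5% of heavy constant counts in MI 1, 41.9% in MI 2 and 82.4% in MI 3. In MI+BPD it took 22.9%, 71.8% and 65.3%, and in sham 72.8% to 80.8%. Scaled per kilobase of annotated exon, which allows levels of different genes to be set side by side, Igha reached 54.1% of heavy constant counts in MI+BPD 1 and 41.1% in MI 2, against Ighm at 28.2% and 48.9%. Ighm was thus ahead of Igha per length in every library other than MI+BPD 1. In MI 1 Ighg2b took 11.3% of heavy constant counts, Ighg2c 4.66% and Ighg1 3.55%, whereas the IgG counts of Sham 1 and Sham 2 were nearly all Ighg2c, at 18.4% and 17.5%.

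**Figure D3:**
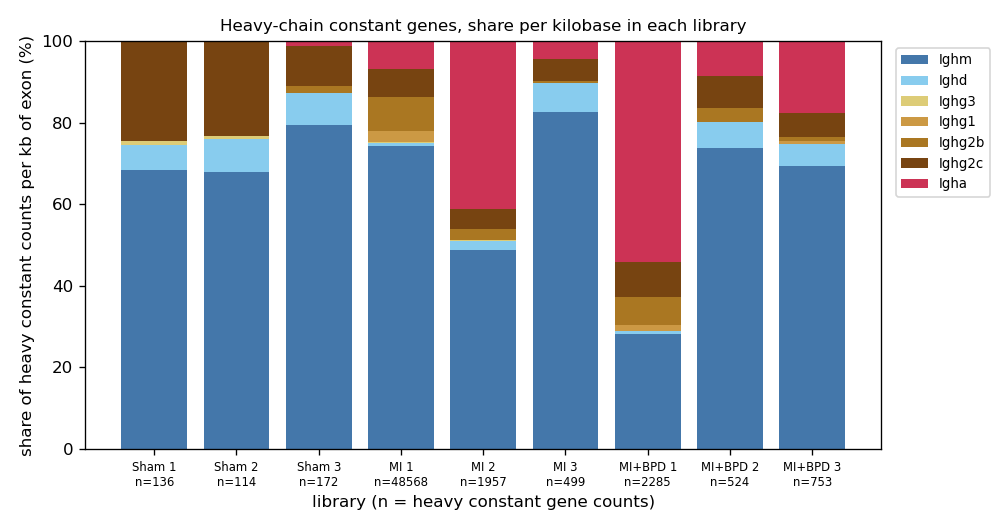
Share of each heavy-chain constant gene in the heavy constant counts of a library, per kilobase of exon (stacked to 100%); n is the number of heavy constant counts. Igha is the largest share in MI+BPD 1 at 54.1%, and Ighm in the other 8 libraries.

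Light and heavy chains did not rise in one ratio. There were 13, 21.7 and 31.7 Igkc counts per 100 Ighm counts in sham. The ratio was 71.1, 97.0 and 19.5 after MI, against 194, 28.5 and 48.4 in MI+BPD, so MI 3 and MI+BPD 2 lay inside the sham range. Per 100 constant-region counts, the sham libraries held 3.97, 9.70 and 8.97 V segment counts, the MI libraries 49.6, 40.4 and 12.7, and the MI+BPD libraries 66.0, 22.5 and 28.9. Every infarct library exceeded every sham library in this measure, and the 3 with the most immunoglobulin counts (MI 1, MI+BPD 1 and MI 2) were highest. Sham libraries thus held Ighm counts with few counts of Igkc or of V segments beside them.

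Per 100 heavy constant counts, Jchain had 2.21, 0.88 and 3.49 in sham. It had 17.5, 21.7 and 5.21 in MI, then 22.2, 5.92 and 13.3 with BPD. The same 3 libraries, MI 1, MI 2 and MI+BPD 1, were highest here, although IgM led in the first of them and IgA in the last.

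Turning to the V segments, 97 of 125 had no count in any sham library, and MI 1 held 90.3% of all V counts. Of the full set of 137, 117 genes were highest by CPM in MI 1, 18 in MI+BPD 1 and 2 in another library. The rule on summed counts favours genes that are high in MI 1, so this split follows in part from it. In MI 1 all 125 V segments had at least 3 counts, against 60 in MI 2, 9 in MI 3, 89 in MI+BPD 1, 17 in MI+BPD 2 and 31 in MI+BPD 3. These numbers follow the V counts of the libraries, which were 36509, 1139, 74, 2253, 143 and 288. At an equal 74 V counts, the number of segments to be found was 33.3, 35.3, 38.0, 40.5, 37.3 and 36.0 in the same order. At that equal depth the lowest value was that of MI 1 and the highest that of MI+BPD 1. These values carry no interval, that of MI 3 is its own observed number, and segments below the count rule were left out.

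Igkv14-126, whose sequence is given above, led MI 1 with 4784 counts, or 13.1% of its V counts (95% exact binomial interval 12.8% to 13.5%). It had 0, 0 and 2 counts in sham, 5 and 0 in MI 2 and MI 3, and 4, 1 and 0 in MI+BPD. Igkv14-111, with 27 differing bases, had 249 counts in MI 1. Ighv11-2 had 2260 counts in MI 1, 1 in MI 2, 6 in MI+BPD 1 and 0 in the other 6 libraries, and no read was assigned to Ighv11-1, which differs at 4 bases. Ighv11-2 and Igkv14-126 are known as the heavy and light segments of a recurrent antibody of B-1 cells that binds phosphatidylcholine. Bulk reads do not link heavy to light chains, and neither gene had counts in enough libraries to be tested.

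A second recurrent B-1 pair of the same specificity, Ighv12-3 with Igkv4-91, was looked up after these values were seen. Ighv12-3 had 53 counts in MI 1 and 0 in every other library. Igkv4-91 had 285 counts in MI 1, 52 in MI 2, 1 in MI+BPD 1 and 3 in MI+BPD 3. Cd5, a surface protein of T cells and of B-1a cells, had 25, 15 and 16 counts in MI and 6, 18 and 15 in MI+BPD, without the excess in MI 1 that the V segments had.

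Other segments with large counts were also led by MI 1. Igkv15-103 had 3013 counts there and at most 35 in another library, Ighv7-1 had 1476 and at most 9, and Igkv12-44 had 1207 and at most 22. Igkv10-96 had 2699 counts in MI 1, 38 in MI 2 and 30 in MI+BPD 1, and Igkv8-30 had 1788, 56 and 36. Ighv1-63 had 440 counts in MI 1 and at most 4 in another library. In MI against sham, Igkv10-96 (9.17 ± 3.07), Igkv8-30 (11.8 ± 4.35) and Igkv12-44 (8.86 ± 3.11) were called (log2 ± SE, edgeR adjusted p = 0.0256, 0.0473 and 0.0311), and each lost the call without MI 1 (edgeR adjusted p = 0.0988, 0.0910 and 0.174). With no sham count, Igkv8-30 was at least 305-fold higher in MI as a group, and at least 15.1-fold higher without MI 1.

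Other libraries were led by other segments. Iglv1, the main lambda V segment, was first in MI 2 with 101 counts, 8.87% of V counts (7.28% to 10.7%), and in MI+BPD 1 with 280 counts, 12.4% (11.1% to 13.9%), against 2.98% in MI 1. Igkv6-14 was first in MI+BPD 2 with 21 of 143 V counts, 14.7% (9.33% to 21.6%), and had 0 counts in both other MI+BPD libraries. Igkv1-110 took 8.69% of V counts in MI 2 and 6.25% in MI+BPD 3, and Ighv6-3 took 4.22% in MI+BPD 1 with 0 counts in MI 2. Ighv1-15 had 39 counts in MI+BPD 1 and 11 in MI+BPD 2, against 6 in MI 1. The leading segment by count thus differed between most libraries, but some leads were narrow. In MI 2 Iglv1 had 101 counts against 99 for Igkv1-110, and in MI 3 Igkv6-23 had 8 against 6 for Igkv1-117. In MI+BPD 3 Igkv1-117 had 21 against 18 for Igkv1-110. Where a segment has a near copy its count is uncertain.

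Only 2 V segments, Igkv6-23 and Igkv1-117, had at least 3 counts in all 6 infarct libraries. Both were picked by their counts in these libraries and passed the filter through them. Their tests against sham are thus a description and no separate support. Igkv6-23 had 88, 64 and 8 counts in MI and 36, 3 and 17 in MI+BPD, and 1 count in sham. Its log2 change was 5.95 ± 1.58 in MI against sham (SE, edgeR adjusted p = 0.0077) and 4.89 ± 1.74 in MI+BPD against sham (edgeR adjusted p = 0.0351); without MI 1 these were 5.42 and 4.88 and both passed (edgeR adjusted p = 0.0230 and 0.0398). Without MI+BPD 1 the second was 3.85 and did not pass (edgeR adjusted p = 0.0993), nor did it without any one sham library. Igkv1-117 had no sham count, 219, 12 and 6 counts in MI and 9, 10 and 21 in MI+BPD, and was at least 39.2-fold higher in MI, at least 4.60-fold higher in MI without MI 1, and at least 8.47-fold higher in MI+BPD. Its log2 change was 8.84 ± 2.81 in MI against sham (SE, edgeR adjusted p = 0.0243), and 6.70 ± 3.55 in MI+BPD against sham did not pass (edgeR adjusted p = 0.141). Another 21 V segments reached 3 counts in 1 infarct library only. This had to be MI 1, where all 125 V segments had at least 3 counts.

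**Figure D4:**
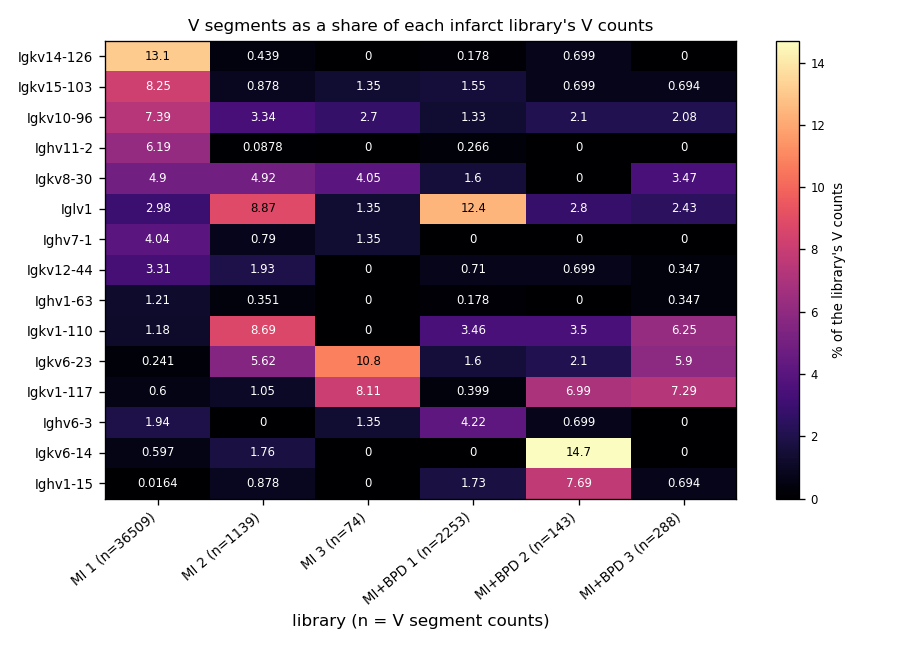
V segments named in the text as a percent of the V counts of each infarct library (cell text and colour); n is the number of V counts. MI 1 is led by Igkv14-126 at 13.1%, MI 2 and MI+BPD 1 by Iglv1, MI 3 by Igkv6-23 at 10.8%, MI+BPD 2 by Igkv6-14 and MI+BPD 3 by Igkv1-117 at 7.29%.

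Markers of B cells and plasma cells were examined beside the immunoglobulin genes, in lists chosen with earlier results known. B-cell surface and identity genes were highest in MI 1. Ms4a1 (CD20), a B-cell surface protein, was at 11.1 CPM in MI 1 and elsewhere at most 1.06, Cd79a, a signalling chain of the receptor, at 14.1 and at most 1.06, and Pax5, the B-lineage transcription factor, at 9.25 and at most 0.778. MI+BPD 1, with 369 CPM of immunoglobulin, had Ms4a1 at 0.179 CPM, below the lowest sham value of 0.262.

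Of 19 B-cell genes 14 were tested, and 12 were called higher and 1 lower in MI against sham in edgeR. Of all tested genes, 37% were called higher and 31.9% lower in that comparison. The median log2 change of the 14 was 3.24. Cd72 (3.33 ± 0.35, SE, adjusted p = 7.07e-05), Cd22 (4.37 ± 0.83), Blnk (1.75 ± 0.29) and Ebf1 (0.73 ± 0.15) had the smallest adjusted p. Without MI 1, 9 were called higher with a median of 1.38, where 33.8% of all genes were called higher. Ms4a1 (0.79, edgeR adjusted p = 0.300) and Cd79a (0.999, edgeR adjusted p = 0.060) were not called there. Against sham, 4 of the 14 were called higher in MI+BPD, beside 31.8% of all tested genes. Against MI 0 were called, and 10 had an unadjusted p under 0.05. The summed level of the 19 genes was 45.7 to 59.8 CPM in sham, 90.2 to 215 in MI and 77.1 to 97.7 in MI+BPD, of which 23.3 to 54.8 CPM was Ebf1, which other cell types also express.

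Of the genes that define plasma cells, Mzb1 and Tnfrsf17 were low in every library. Mzb1, a chaperone for antibody assembly, was at 0.274, 0.611 and 0.381 CPM in sham, 0.435, 0.163 and 0.0919 after MI, and 0.359, 0.154 and 0.355 in MI+BPD, so it did not separate infarct from sham. Tnfrsf17 (BCMA), the survival receptor of plasma cells, was at most 0.593 CPM, in MI 1, which held 15 of its 23 counts. Derl3, another gene of the plasma cell list, also peaked in MI 1, with 47 counts (1.86 CPM). Elsewhere Derl3 was at most 0.366 CPM, in MI 2. Its highest sham value was 0.183 CPM, which MI 3 exceeded at 0.276 and MI+BPD 2 did not at 0.154. Mzb1, Tnfrsf17 and Derl3 did not pass the filter on low counts and were not tested. The transcription factors that drive plasma cell fate, Prdm1, Irf4 and Xbp1, were present in sham at 5.24 to 9.23, 1.92 to 2.36 and 60.7 to 70.2 CPM. Sdc1, another gene taken here as defining plasma cells but not a transcription factor, was higher in infarct, as given next. The set is named here by its genes, and not by plasma cells or by infiltration, which bulk RNA does not show.

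Of 18 plasma cell genes 15 were tested, and 11 were called higher and 0 lower in MI against sham in edgeR. Of all tested genes, 37% were called higher and 31.9% lower in that comparison. The median log2 change of the 15 was 1.33. Sdc1 (CD138) rose by 3.24 ± 0.16 (SE, adjusted p = 5.07e-06). It lay between 5.59 and 6.85 CPM in sham and between 44.9 and 66.8 in MI, and at 53.7 to 57.5 with BPD, while the immunoglobulin sum of the infarct libraries ran from 31.4 to 4690 CPM. Prdm1 rose by 0.69 ± 0.20 (edgeR adjusted p = 0.0112) and Xbp1 by 0.28 ± 0.11 (edgeR adjusted p = 0.0441), while Irf4 at 0.97 ± 0.65 did not pass (edgeR adjusted p = 0.212) and was at -0.23 without MI 1. Txndc5 (2.24 ± 0.18), Slamf7 (3.01 ± 0.48) and Tent5c (2.42 ± 0.44) rose too. Pou2af1, a B-lineage coactivator singled out after its values were seen, was at 12.5 CPM in MI 1 and at most 0.778 elsewhere. Against sham, 8 of the 15 were called higher in MI+BPD, beside 31.8% of all tested genes. Against MI 0 were called, and 4 had an unadjusted p under 0.05.

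Antibody-secretion genes of the endoplasmic reticulum moved in both directions. Of 16 tested, 8 were called higher and 3 lower in MI against sham. The shares to set beside this list and those below are 37% of all tested genes called higher and 31.9% lower. Among the genes called were Sec61b at 1.32 ± 0.13, Edem1 at 1.40 ± 0.14, Pdia4 at 1.25 ± 0.14 and Herpud1 at -1.38 ± 0.14. Their summed level was 1885 to 1999 CPM in sham and 1699 to 2231 in MI. Of 11 tested class-switch and germinal-centre genes 7 were higher and 1 lower, led by Mki67, a proliferation marker, and S1pr2. All 8 tested Fc receptor genes rose in MI, among them Lilrb4a (2.54 ± 0.18), Fcgr4 (3.05 ± 0.37), Fcgr1 (1.77 ± 0.21) and Fcgr3 (1.42 ± 0.17), in edgeR.

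Among chemokines and survival factors of B and plasma cells, 6 of 9 tested genes were called higher and 1 lower in MI against sham. Over all tested genes these shares were 37% and 31.9%. Cxcl13, the chemokine that draws B cells into follicles, was at 0, 0 and 0.0761 CPM in sham, 90.6, 1.87 and 0.0919 after MI, and 2.51, 0.359 and 0.406 in MI+BPD. MI 1 was highest, followed by MI+BPD 1 and MI 2, which is also the order of the immunoglobulin sum. Its call (9.79 ± 3.22, SE, edgeR adjusted p = 0.0236) did not hold without MI 1 (4.84, edgeR adjusted p = 0.0604). Cxcr4, a receptor for homing to Cxcl12, rose by 2.67 ± 0.26 (edgeR adjusted p = 5.09e-05), and Tnfsf13b (BAFF), a B-cell survival factor, by 1.18 ± 0.28 (edgeR adjusted p = 0.0042). Cxcl12 itself fell by 0.63 on the log2 scale.

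Markers of other cells moved with MI 1 as well. Adipocyte genes were nearly absent outside it: Adipoq was at 24.7 CPM in MI 1 and at most 0.184 elsewhere, and Plin1 at 17.2 and at most 0.179. Mesothelial genes were highest in MI 1 and next in MI+BPD 1, with Msln at 44.2 and 26.1 CPM and Upk3b at 73.0 and 20.1, against 2.28 to 8.47 for both genes in sham. The 11 mesothelial and serosal fat genes together were at 16.4 to 31.0 CPM in sham, 332, 55.7 and 13.8 after MI, and 118, 14.0 and 26.3 in MI+BPD, and 1 of 6 tested, Lrrn4, was called higher in MI against sham and 0 without MI 1. Their part in the immunoglobulin result was not tested. The 9 lymph node stroma genes found in the table, a list that includes Cxcl13, summed to 2.28 to 2.71 CPM in sham, 106, 8.66 and 3.72 after MI, and 11.7, 5.23 and 6.80 in MI+BPD. All 3 that were tested (Cxcl13, Bst1 and Fcer2a) were called higher in MI against sham, and 2 without MI 1. Of all tested genes, 37% and 33.8% were called higher in those fits. Ccl21a and Madcam1 of this list had 0 counts in all libraries. The part of this list in the immunoglobulin result was not tested either.

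T-cell, macrophage and blood genes differed less between MI 1 and the other infarct libraries. Of 13 tested T-cell genes 11 were called higher and 1 lower in MI against sham, beside 37% and 31.9% of all tested genes. Cd3e was at 1.07, 1.22 and 0.460 CPM in MI. All 10 macrophage genes were higher, with summed levels of 334 to 401 CPM in sham, 713 to 1220 in MI and 910 to 1178 in MI+BPD. None of 7 blood genes was called in edgeR in MI against sham (1 had an unadjusted p under 0.05). In MI+BPD against sham 1 blood gene was called higher (edgeR adjusted p = 0.0327), beside 31.8% of all tested genes. The blood genes had summed levels of 112 to 159 CPM in sham, 96.1 to 125 in MI and 122 to 141 in MI+BPD. Of these lists, no gene was called in MI+BPD against MI.

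**Figure D5:**
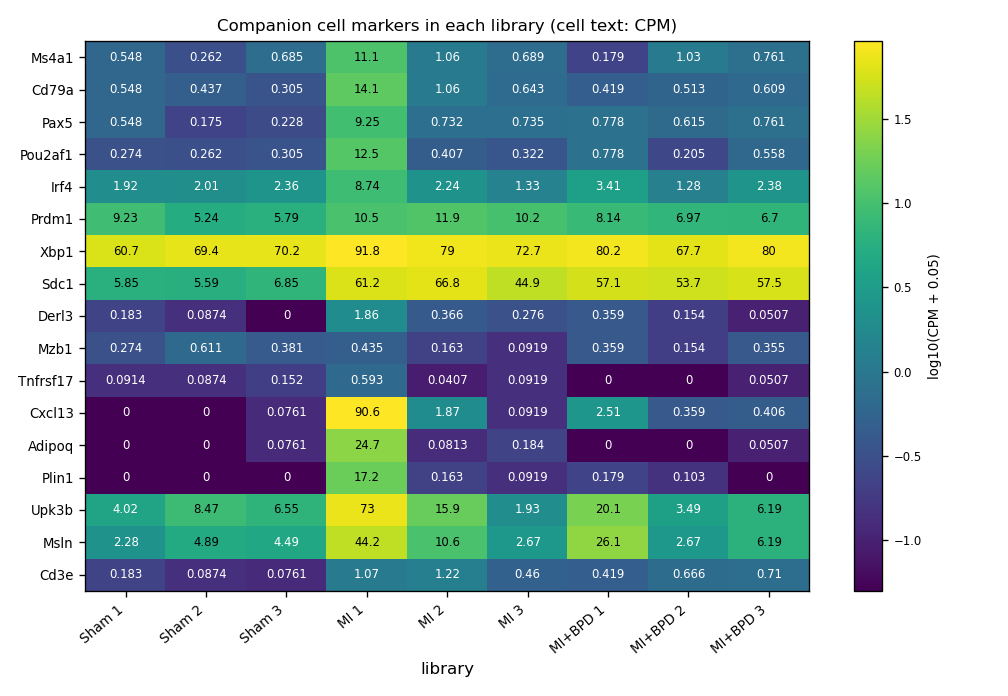
Level of markers of B cells (Ms4a1 to Pou2af1), plasma cells (Irf4 to Tnfrsf17), the chemokine Cxcl13, adipocytes (Adipoq, Plin1), mesothelium (Upk3b, Msln) and T cells (Cd3e) in each library; text gives CPM and colour log10(CPM + 0.05). Ms4a1, Cxcl13 and Adipoq peak in MI 1 at 11.1, 90.6 and 24.7 CPM, while Sdc1 is between 44.9 and 66.8 CPM in all infarct libraries and Mzb1 is at most 0.611 CPM anywhere.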

How the data were processed

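RNA of left ventricle was sequenced in 9 libraries (3 sham, 3 MI, 3 MI+BPD), grouped by the labels. The authors deposited whole-number read counts per gene symbol, with no normalization, per the file headers and values. The submitters' processing notes name STAR without a version, and the builds mm10, GRCm39 and mm39 without their roles; the counting program with its strand setting and gene models was not given in the sources used here. Paired-end reads of 150 bases came from TRIzol RNA, per the labels' protocols. All 9 columns were used.

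The whole table was filtered with filterByExpr (minimum count 10, minimum total 15), scaled by TMM and fitted in R 4.3.3 with edgeR 4.0.16 (robust quasi-likelihood, all libraries by group, 6 residual degrees of freedom). Tests were 2-sided, with Benjamini-Hochberg adjustment over 15138 genes and a threshold of 0.05. The SE of a log2 change follows from its F statistic. No test was made of sums over the set. Shares carry exact Clopper-Pearson intervals of 95%. With 0 sham counts, a fold is the least possible one, set against a floor of 3 counts for the sham group; with 1 to 3 it is a ratio with its exact counting interval.

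The genes and lists were chosen with earlier results of these data known. Named are all constant genes and Jchain, the 8 V segments of largest mean CPM, the 2 with most counts in each library, up to 4 genes of smallest adjusted p per list, and genes that define B and plasma cells; some of these are not reported here. Adipocyte genes, Pou2af1, Ighv12-3, Igkv4-91, Cd5 and the other genes named outside this rule were chosen after their values were seen. The procedure was tested on simulated data. Alternatives were DESeq2 1.42.0, limma-voom (limma 3.58.1), other scalings and filters, only the groups compared, a replicate block and each library left out. Replicate numbers did not pair the libraries.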

Additional observations from a re-analysis of the deposited data

How the results depend on the processing

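The summed level kept its direction in all 3 comparisons under other scalings, other count thresholds of the rule and geometric means, except MI+BPD against MI without MI 1. Leaving out 1 library at a time, the log2 ratio ranged from 2.76 to 7.30 for MI to sham, from -4.87 to 0.61 for MI+BPD to MI, where the reversal came without MI 1, and from 1.85 to 3.83 for MI+BPD to sham. Without MI 1 and MI+BPD 1 together, MI to sham was 2.76. With geometric means the 3 ratios were 4.28, -1.54 and 2.74. The number of immunoglobulin genes called, and the number tested, depended on the processing. In MI against sham, 16 of 25 by the chosen fit, it was 29 of 82 with DESeq2, 9 of 25 with limma-voom, 3 of 137 with no filter, 5 of 6 with only the 2 groups compared and 8 of 14 without MI 1 and MI+BPD 1, where 26.3%, 39.7%, 19.9%, 35.3% and 34.2% of all genes were called higher. In MI+BPD against sham, 2 of 25 by that fit, it was 10 of 80, 1 of 25, 0 of 137 and 5 of 7 under the first 4 of these, with 24.1%, 36.2%, 16.5% and 32.7% of all genes. Leaving out 1 library gave 3 to 42, 0 to 7, and in MI+BPD against MI 0 to 5 called; without any single sham library 3 or 4 were called in MI against sham, of 81 to 83 tested. With a replicate block, 21 were called in MI against sham, 0 in MI+BPD against MI and 6 in MI+BPD against sham; correlations of same-numbered libraries ran from -0.158 to 0.194, so the number is no pairing. With a minimum count of 30, 5 of 7 tested B-cell genes were called higher in MI against sham, where 38.1% of all genes were. Leaving out 1 library gave 8 to 13 B-cell genes in MI against sham, 4 to 7 in MI+BPD against sham and 0 to 3 lower in MI+BPD against MI; the plasma cell list had 0 to 1 lower in the last, and 1 with limma-voom. The cause of these changes was not tested. Changes of single genes that turned sign in MI+BPD against MI, all except Sdc1 and Tnfsf13b by leaving out MI 1 alone, had these log2 ranges with 1 library left out: Igha -3.594 to 0.635, Ighg2b -6.307 to 1.625, Ighg2c -4.448 to 0.933, Igkc -5.283 to 0.517, Iglc1 -3.817 to 0.451, Jchain -5.186 to 0.396, Iglv1 -5.818 to 1.423, Igkv1-117 -2.674 to 0.869, Irf4 -1.224 to 0.385, Xbp1 -0.1665 to 0.00265, Cxcl13 -6.351 to 0.0869, Pou2af1 -3.649 to 0.4615, Sdc1 -0.1901 to 0.0797 (without MI 1 or MI 2) and Tnfsf13b -0.3543 to 0.0609 (without MI 1 or MI+BPD 2). Without MI 1 and MI+BPD 1, Igkv1-117 (1.006), Igkv6-14 (0.324), Ms4a1 (0.0103), Irf4 (0.0178) and Ighd (0.187) turned. In MI against sham Irf4 ranged from -0.2274 to 1.38 and was -0.2456 without both. In MI+BPD against sham the ranges were -0.1874 to 1.324 for Ighg2c, -0.0433 to 0.3934 for Prdm1, -0.2301 to 0.4566 for Irf4, 0 to 6.339 for Igkv6-14 and -0.0599 to 0.7831 for Ms4a1; without both, Ighg2c was at -0.1906, Prdm1 at -0.00585 and Irf4 at -0.2278, and Irf4 at -0.1774 with limma-voom. Each of these turned changes had an adjusted p above 0.05. Over the single genes and settings, 1255 values kept direction and side of the threshold, 147 fell short of it and 40 newly passed it. Depth limits the V segments: MI 3 held 74 V counts in all.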

Other observations

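Genes of early B-cell development, which stand outside the immunoglobulin set, were highest in MI 1. Rag1, which cuts the DNA of immunoglobulin and T-cell receptor genes for their joining, had 121 counts (4.78 CPM) in MI 1, 1 in MI+BPD 2, 2 in MI+BPD 3 and 0 in the other 6 libraries. Igll1, a component of the surrogate light chain, had 38 counts in MI 1 and 0 in the other 8. Rag2, the partner of Rag1, had 16 counts in MI 1 and 0 in the other 8, and Dntt, which adds bases at the joints, had 13 counts in MI 1 and at most 1 in another library. Vpreb1, the other part of the surrogate light chain, had 16, 5 and 2 counts in MI, 1 in MI+BPD 2 and 3 in MI+BPD 3, and Vpreb2 had 1 in MI 1. None of these genes passed the filter on low counts. Rag1, Rag2 and Dntt are also genes of thymocytes, and the 7 thymus genes summed to 6.64 CPM in MI 1 and at most 0.935 CPM in any other library, while Foxn1 and Psmb11, which mark thymic epithelium, had 1 count and 0 counts.

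A library with the second-highest immunoglobulin level, MI+BPD 1, did not have the second-highest level of all B-cell genes. It held 6174 immunoglobulin counts and 508 Jchain counts, but 3 counts of Ms4a1 and 7 of Cd79a, fewer than MI 2. Cd22, at 1.67 CPM in MI+BPD 1, and Cd79b, at 1.02 CPM, were above their sham values of at most 0.305 and 0.533, and Pax5 at 0.778 CPM was the highest outside MI 1. In MI 1, 118624 immunoglobulin counts stood beside 280 counts of Ms4a1 and 356 of Cd79a. MI 2 held 4384 immunoglobulin counts beside 26 of Ms4a1 and 26 of Cd79a. Sham libraries held 148 to 249 immunoglobulin counts beside 4 to 6 counts of Cd79a.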
